A study of Mus musculus with 8 samples.

Results

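The mitosis and spindle genes described here are 50 genes whose proteins build the spindle, attach and separate chromosomes and complete cell division. They were listed by name, and the list was chosen with earlier results of these data known. A gene was read from the probe sets annotated to its symbol alone, and the brightest of them on average over the 8 arrays was used. Of the 50 genes, 49 were read in this way, among 18193 genes in all, and 47 of them passed the filter on low signal, among 11189 genes tested. Ccnb1, the gene of cyclin B1, was not analysed here, and Kif15 and Cdc25c lay under the filter. The genes fell into 9 role groups, which were kinesin motors, the spindle checkpoint, mitotic kinases with the chromosomal passenger complex, CDK1 with its cyclins and phosphatases, the anaphase machinery, spindle assembly proteins, chromosome structure, the centromere and kinetochore, and cytokinesis.

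RNA of spleen cells from male C57/BL6 mice was hybridised to 8 Affymetrix mouse arrays, and the study followed lymphoid tumour formation in mice that carry a transgene for HMGA1a. HMGA1a is a chromatin protein that bends and opens DNA rich in A and T. The 4 groups held 2 biologic replicates each. They were littermate controls without the transgene (WT) aged 2 months, HMGA1a transgenic mice (TG) aged 2 months, WT mice aged 12 months and TG mice aged 12 months. The series' design text places the younger age before tumours and the older age after tumours are established, and the promoter that drives the transgene is not given in the sources used here. Nothing else differed between the groups by the labels.

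In a dividing cell, CDK1 with its cyclins drives entry into mitosis, kinesins and microtubule-bundling proteins shape the spindle, and the kinetochore ties each chromosome to it. The spindle checkpoint holds the anaphase-promoting complex back until every chromosome is attached, after which separase cuts cohesin and the cytokinesis machinery divides the cell. Most of these genes are transcribed from late S phase to mitosis, so in spleen their RNA is known as a mark of cycling lymphoid and erythroid cells. In RNA from mixed spleen cells, fewer cells of a type and less RNA per cell cannot be told apart.

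Many genes of this phase carry, just before the transcription start, a cell cycle gene homology region (CHR), which the DREAM and B-MYB-MuvB complexes bind, and CCAAT boxes, which NF-Y binds. Promoters were therefore searched in the 250 bases before each start (RefSeq, GRCm38.p6) for the CHR letters TTTGAA and for CCAAT. Both strands were searched for each, and whether matches of the 2 motifs share bases was not checked. Of the 49 measured genes, 41 had a promoter in the table, with 45 promoters in all. TTTGAA stood in 16 of the 41 genes, or 39.0%, against 18.3% of 27025 genes. CCAAT stood in 29 of the 41, or 70.7%, against 37.5% of all genes, and at least 2 copies stood in 18 of the 41, or 43.9%, against 11.5%. Both motifs stood in 14 of the 41, or 34.1%, against 7.34%. Of 32 DNA replication genes 62.5% held CCAAT, 31.2% at least 2 copies and 15.6% TTTGAA, and of 115 other genes of the mitotic pathways the shares were 48.7%, 23.5% and 25.2%. The median GC content of these promoters was 59.6%, and that of all promoters 52.4%. A match is a description of the letters, not a binding site.

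Of the genes whose signals on all arrays are given below, chosen by p-value in each role group, the 4 with TTTGAA and the smallest p-values between TG and WT mice at 12 months are shown for the place of both motifs. They are Espl1 (chr15:102296043-102296292, plus strand), Top2a (chr11:99024190-99024439, minus strand), Kif11 (chr19:37376132-37376381, plus strand) and Prc1 (chr7:80294226-80294475, plus strand, 1 of 2 promoters of the gene). Capitals mark TTTGAA or its reverse complement TTCAAA, and CCAAT or its reverse complement ATTGG.
Espl1: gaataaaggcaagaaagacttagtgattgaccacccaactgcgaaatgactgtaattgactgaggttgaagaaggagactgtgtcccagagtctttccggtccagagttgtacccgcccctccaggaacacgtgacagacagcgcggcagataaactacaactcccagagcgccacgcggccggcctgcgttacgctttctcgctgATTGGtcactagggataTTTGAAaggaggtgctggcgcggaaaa
Top2a: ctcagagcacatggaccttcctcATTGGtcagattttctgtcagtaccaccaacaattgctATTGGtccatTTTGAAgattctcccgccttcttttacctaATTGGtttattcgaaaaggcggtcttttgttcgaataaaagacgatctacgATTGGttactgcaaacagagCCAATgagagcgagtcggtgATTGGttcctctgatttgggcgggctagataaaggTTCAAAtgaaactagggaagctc
Kif11: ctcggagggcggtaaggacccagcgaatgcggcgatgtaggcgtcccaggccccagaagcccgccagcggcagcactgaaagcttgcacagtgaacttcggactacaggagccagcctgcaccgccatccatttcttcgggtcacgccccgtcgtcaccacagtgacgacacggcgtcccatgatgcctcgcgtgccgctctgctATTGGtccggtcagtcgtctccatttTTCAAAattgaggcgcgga
Prc1: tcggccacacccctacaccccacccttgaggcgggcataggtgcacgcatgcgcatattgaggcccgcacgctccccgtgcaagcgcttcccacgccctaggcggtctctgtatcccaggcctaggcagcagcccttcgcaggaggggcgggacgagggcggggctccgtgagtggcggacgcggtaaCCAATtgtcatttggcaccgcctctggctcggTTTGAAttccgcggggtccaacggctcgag
The CHR letters nearest the start lay 27 bases before it in Espl1, 23 in Top2a, 19 in Kif11 and 30 in Prc1. Top2a had a second copy 179 bases before the start and 6 CCAAT boxes, and the other 3 promoters had 1 CCAAT box each.

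Array signals are linear intensities, and log2 differences are of log2(signal + 16), which understates the change of dim genes. Differences of single genes are given ± SE, with p-values from limma adjusted by Benjamini-Hochberg over all genes tested. Median signals per array ranged from 44.9 to 49.5. The spleen origin showed in B cell markers, whose summed signal over 11 genes ran from 14820 to 28648, and in T cell markers, at 3429 to 8820 over 10 genes. The 2-month WT replicate 1 array stood apart in exocrine pancreas markers, whose summed signal over 7 genes was 14474 there and between 573 and 905 on the other 7. Counts, medians and leading genes of the comparisons that use that array are given without it as well, a choice made after seeing the data. Below, the signal of replicate 1 comes before that of replicate 2, and precision is limited by having 2 arrays a group. P-values measure only the spread between the arrays of a group. Unless a block is named, SEs and p-values come from a fit without the replicate number. Their spread then includes any shift that arrays of 1 replicate number share.

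The first question was whether mitosis and spindle genes differ between TG and WT mice at 12 months, when tumours are established. At that age 45 of the 47 genes had a higher mean in TG mice, where 45.2% of all genes tested did, and Smc4 and Kif4 a lower one. The median log2 difference of the 47 was 0.51, or 1.42-fold, and it was 0.52 within replicate 1 and 0.43 within replicate 2. The median of all genes tested was -0.034. In 34 of the 47, or 35 of the 49 measured, both TG arrays lay above both WT arrays, where 14.3% of all genes tested did, and no gene had both TG arrays below, where 19.9% did. The difference was positive within both replicates for 42 of the 47, against 26.9% of all genes. A difference of at least 1.5-fold was found for 19 genes and of at least 2-fold for Psrc1 and Racgap1. Counted from the highest log2 difference among the 11189 genes tested, Psrc1 ranked 8 and Racgap1 37. Ect2, the smallest of the 19, ranked 332.

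None of the 47 passed limma's test at an adjusted p of 0.05, and 0% of all genes tested did. An unadjusted p under 0.05 was found for 7 genes, all higher in TG mice, against 2.59% of all genes tested that were higher and 5.14% that were lower. With the replicate number as a block in the fit, 15 of the 47 had an unadjusted p under 0.05, all higher, against 7.26% of all genes that were higher and 12.6% that were lower, and again none passed after adjustment, where 0.0447% of all genes did. SEs of single genes ran from 0.19 to 0.49 on the log2 scale.

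**Figure D1:**
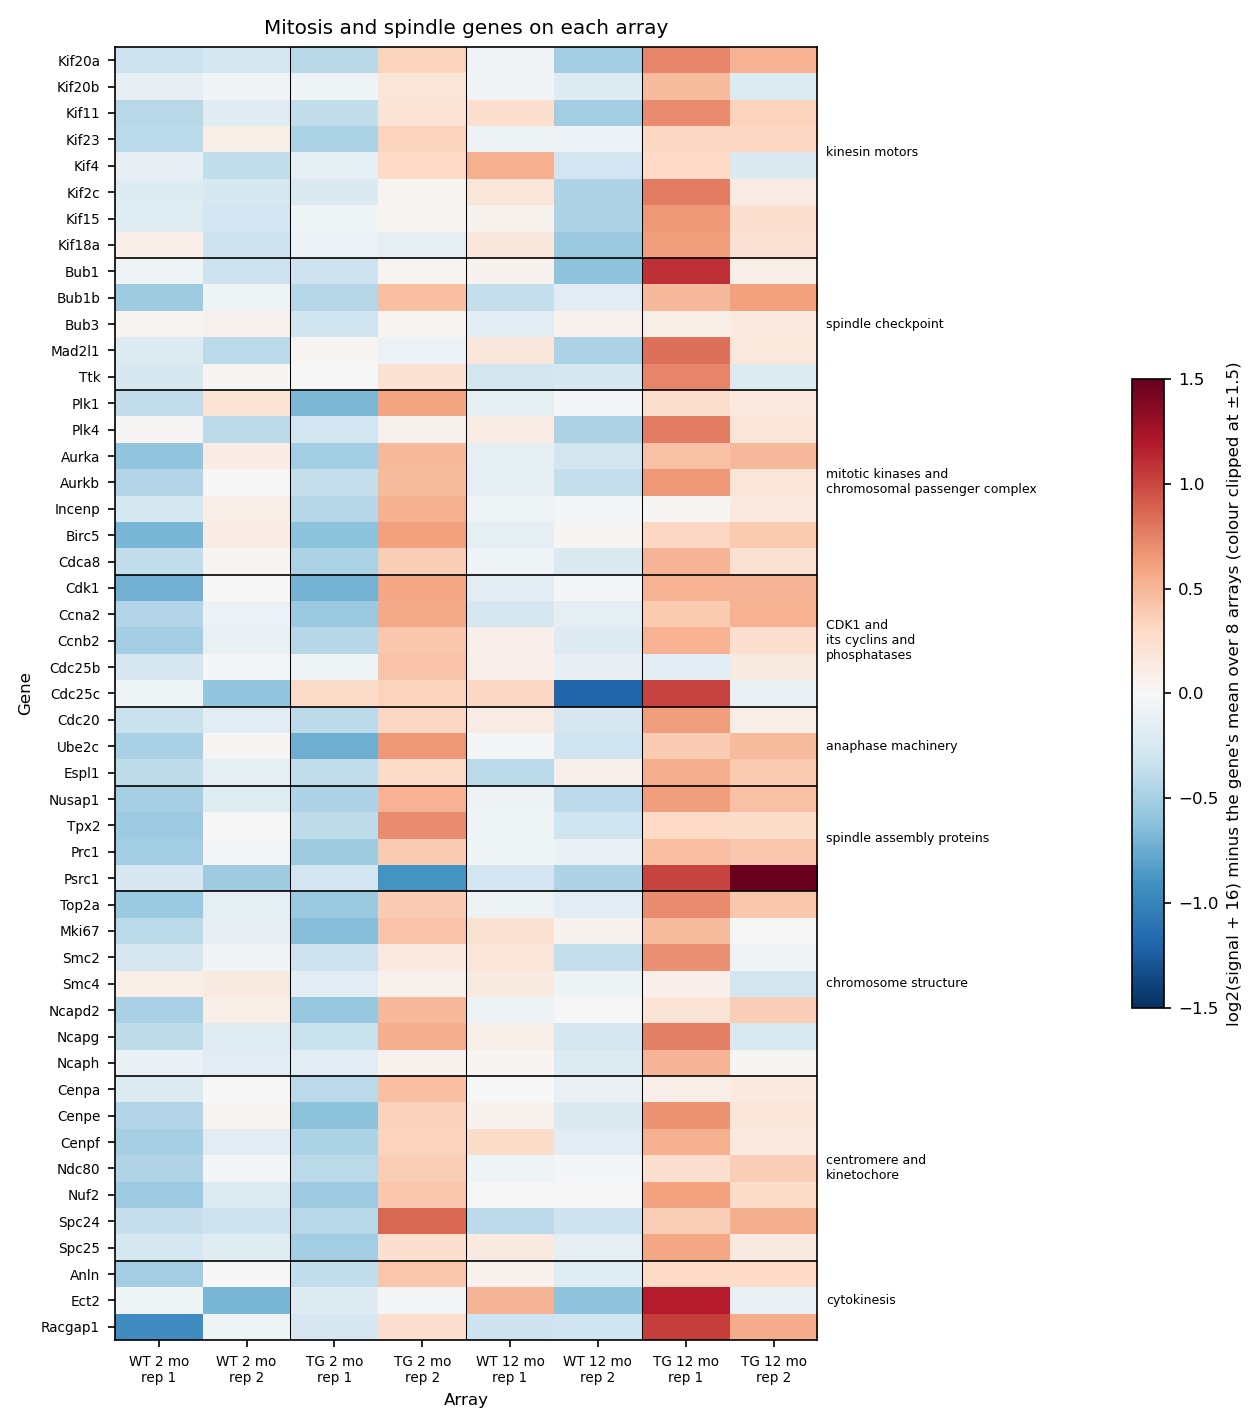
Each row is 1 of the 49 measured genes, grouped by role, and each column 1 array; colour is log2(signal + 16) minus the gene's mean over the 8 arrays. The columns of TG mice at 12 months are mostly red, that of TG replicate 2 at 2 months is also mostly red, and the other columns are mostly blue or pale.

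Among the kinesin motors, 6 of 7 tested genes were higher at 12 months in TG mice, the median log2 difference being 0.59. Kif20a, which carries the chromosomal passenger complex to the spindle midzone, had signals of 92.9 and 63.0 in WT and 172 and 147 in TG mice at 12 months, and 74.3 and 78.6 in WT and 69.0 and 126 in TG mice at 2 months. Both 12-month TG arrays were above the other 6, with a log2 difference at 12 months of 0.92 ± 0.29 (adjusted p = 0.586). Kif11, the motor that pushes the spindle poles apart, had signals of 218 and 121 in WT and 304 and 232 in TG mice at 12 months, and 131 and 157 in WT and 136 and 211 in TG mice at 2 months. At 12 months its TG arrays lay above the WT arrays, by 0.65 ± 0.31 (adjusted p = 0.681), and by 0.27 without WT replicate 2. Kif18a, which limits the oscillation of chromosomes at the spindle equator, had signals of 87.4 and 46.3 in WT and 126 and 90.6 in TG mice at 12 months, and 82.3 and 58.3 in WT and 70.3 and 66.9 in TG mice at 2 months. Its TG arrays were the higher ones at 12 months, by 0.62 ± 0.30 (adjusted p = 0.691), and overlapped with WT at 2 months. Without the 12-month WT replicate 2 array the difference was 0.25. Kif4, a chromosome-bound kinesin, had signals of 234 and 126 in WT and 197 and 133 in TG mice at 12 months, and 143 and 118 in WT and 141 and 197 in TG mice at 2 months. Its groups overlapped at 12 months, and the log2 difference was -0.079 ± 0.32 (adjusted p = 0.986). The differences of the other 3 tested kinesins, Kif2c, Kif23 and Kif20b, were 0.59, 0.39 and 0.25. Kif15, which can back up Kif11 and was under the filter, had signals of 16.03 and 6.44 in WT and 32.6 and 20.9 in TG mice at 12 months, and 11.3 and 9.24 in WT and 13.5 and 15.7 in TG mice at 2 months, so that all its values were dim.

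All 5 spindle checkpoint genes had a higher TG mean at 12 months, the median difference being 0.65. Bub1b, whose product BUBR1 is part of the complex that inhibits the anaphase-promoting complex, had signals of 212 and 244 in WT and 393 and 429.5 in TG mice at 12 months, and 185 and 263 in WT and 199.97 and 383 in TG mice at 2 months. Its 12-month TG arrays were the highest of the 8, and the difference at 12 months was 0.81 ± 0.30 (adjusted p = 0.607). Bub1, a checkpoint kinase at the kinetochore, had signals of 142 and 84.1 in WT and 310.0 and 145 in TG mice at 12 months, and 129 and 107 in WT and 106 and 139.8 in TG mice at 2 months. The groups did not overlap at 12 months, with a difference of 0.87 ± 0.37 (adjusted p = 0.637), but TG replicate 2 lay close to WT replicate 1, and without TG replicate 1 the difference was 0.36. Mad2l1, the gene of MAD2, the protein that binds CDC20 at unattached kinetochores, had signals of 379 and 237 in WT and 607 and 378 in TG mice at 12 months, and 290.2 and 249 in WT and 343 and 315 in TG mice at 2 months. Here the lower TG array and the higher WT array at 12 months were nearly level, and the difference was 0.65 ± 0.28 (adjusted p = 0.645). Bub3, the partner that brings BUB1 and BUBR1 to the kinetochore, had signals of 1382 and 1616 in WT and 1642 and 1703 in TG mice at 12 months, and 1581 and 1611 in WT and 1246 and 1584 in TG mice at 2 months. Its difference at 12 months was small, at 0.16 ± 0.19 (adjusted p = 0.907), and another probe set past the filter differed by 0.18. For Ttk, the kinase MPS1, the difference of 0.53 was 1.01 and 0.042 within replicates 1 and 2, so that it was near 0 within replicate 2.

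Of the mitotic kinases and chromosomal passenger genes, all 7 had both TG arrays above both WT arrays at 12 months, with a median of 0.51. Plk4, the kinase that starts centriole duplication, had signals of 235 and 152 in WT and 379 and 247 in TG mice at 12 months, and 219 and 161 in WT and 175 and 226 in TG mice at 2 months. Its largest signal was on the 12-month TG replicate 1 array, and the difference at 12 months was 0.65 ± 0.30 (adjusted p = 0.661). Aurkb, the kinase of the passenger complex, had signals of 161 and 137 in WT and 292 and 207 in TG mice at 12 months, and 128 and 179.6 in WT and 137 and 256 in TG mice at 2 months. Its 12-month difference was 0.67 ± 0.32 (adjusted p = 0.677), and TG replicate 2 at 2 months lay between the 12-month TG arrays. Aurka, the kinase that matures centrosomes, had signals of 246 and 224 in WT and 379.6 and 392 in TG mice at 12 months, and 176 and 298 in WT and 188 and 393 in TG mice at 2 months. The 12-month difference was 0.68 ± 0.35 (adjusted p = 0.699), and the highest of the 8 arrays was TG replicate 2 at 2 months, slightly above the 12-month TG arrays. Incenp, the scaffold of the passenger complex, had signals of 861 and 878 in WT and 914 and 994 in TG mice at 12 months, and 747 and 962 in WT and 664 and 1311 in TG mice at 2 months. Its difference at 12 months was 0.13 ± 0.30 (adjusted p = 0.960), but its other 2 probe sets past the filter differed by 0.37 and 0.77, and its highest array was TG replicate 2 at 2 months. The differences of Cdca8, Birc5 and Plk1, which encode borealin, survivin and a kinase that acts from mitotic entry to cytokinesis, were 0.51, 0.41 and 0.29.

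In the CDK1 group, 4 of 4 tested genes had a higher TG mean at 12 months, the median difference being 0.52. Ccna2, cyclin A2, had signals of 579 and 628 in WT and 921 and 1006 in TG mice at 12 months, and 508 and 655 in WT and 467 and 1039 in TG mice at 2 months. Its groups did not overlap at 12 months, with a difference of 0.66 ± 0.33 (adjusted p = 0.699), and its highest array was TG replicate 2 at 2 months. Cdk1, the kinase that drives mitotic entry, had signals of 414 and 459 in WT and 675 and 665 in TG mice at 12 months, and 275 and 461 in WT and 279 and 701 in TG mice at 2 months. At 12 months its difference was 0.60 ± 0.40 (adjusted p = 0.769), and again the 2-month TG replicate 2 array lay slightly above the 12-month TG arrays. Ccnb2, cyclin B2, had signals of 489 and 401 in WT and 673 and 547 in TG mice at 12 months, and 319.7 and 427 in WT and 341 and 615 in TG mice at 2 months. Its 12-month groups did not overlap, and the difference was 0.44 ± 0.29 (adjusted p = 0.770). Cdc25b, a phosphatase that activates CDK1, had signals of 499 and 432 in WT and 422 and 522 in TG mice at 12 months, and 394 and 462 in WT and 450.2 and 644 in TG mice at 2 months. Its 12-month groups overlapped, and the difference was 0.013 ± 0.22 (adjusted p = 0.997). Cdc25c, a related phosphatase under the filter, had signals of 45.8 and 5.61 in WT and 84.9 and 30.6 in TG mice at 12 months, and 31.9 and 17.2 in WT and 45.0 and 46.9 in TG mice at 2 months, with overlap between the groups at 12 months.

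All 3 anaphase genes had a higher TG mean at 12 months, the median difference being 0.58. Espl1, the gene of separase, which cuts cohesin, had signals of 130.0 and 187 in WT and 264 and 238 in TG mice at 12 months, and 132 and 158 in WT and 133 and 218 in TG mice at 2 months. The 12-month TG arrays were the highest of the 8, and the difference at 12 months was 0.63 ± 0.27 (adjusted p = 0.642). Cdc20, an activator of the anaphase-promoting complex, had signals of 754 and 582 in WT and 1079 and 737 in TG mice at 12 months, and 548 and 622 in WT and 525 and 869 in TG mice at 2 months. Its 12-month groups overlapped, with a difference of 0.42 ± 0.29 (adjusted p = 0.780). Ube2c, the ubiquitin-conjugating enzyme of that complex, had signals of 912 and 749.9 in WT and 1206 and 1289.6 in TG mice at 12 months, and 657 and 937 in WT and 552 and 1459 in TG mice at 2 months. Its groups did not overlap at 12 months, the difference was 0.58 ± 0.40 (adjusted p = 0.785), and its highest array was TG replicate 2 at 2 months.

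The 4 spindle assembly genes each had both TG arrays above both WT arrays at 12 months, with a median of 0.64. Psrc1, the gene of a microtubule-binding protein of the spindle, had signals of 78.7 and 68.3 in WT and 219 and 364 in TG mice at 12 months, and 81.1 and 64.4 in WT and 78.9 and 46.2 in TG mice at 2 months. Both 12-month TG arrays were far above the other 6, which lay between 46.2 and 81.1, and the means at 12 months were 291 ± 103 in TG and 73.5 ± 7.33 in WT mice (SD, n = 2). The difference was 1.74 ± 0.31 (adjusted p = 0.468), and the adjusted p with the replicate block was 0.0686. By p-value it ranked 11 among the 11189 genes tested. A second probe set of Psrc1 past the filter differed by 1.24. Nusap1, which bundles spindle microtubules, had signals of 553 and 439.9 in WT and 908 and 797 in TG mice at 12 months, and 408 and 512 in WT and 416 and 840.4 in TG mice at 2 months. Its 12-month difference was 0.77 ± 0.31 (adjusted p = 0.628), with the 2-month TG replicate 2 array between the 12-month TG arrays. Prc1, which cross-links antiparallel microtubules of the midzone, had signals of 374 and 364 in WT and 541 and 522 in TG mice at 12 months, and 266 and 387 in WT and 265 and 515 in TG mice at 2 months. It differed by 0.51 ± 0.31 (adjusted p = 0.739) at 12 months, nearly alike within both replicates, at 0.52 and 0.50. Tpx2, which activates Aurora A on the spindle, had signals of 193 and 161 in WT and 252 and 249 in TG mice at 12 months, and 134 and 204 in WT and 152 and 342 in TG mice at 2 months. It was higher on TG replicate 2 at 2 months than on either 12-month TG array, and the 12-month difference was 0.47 ± 0.35 (adjusted p = 0.816).

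**Figure D2:**
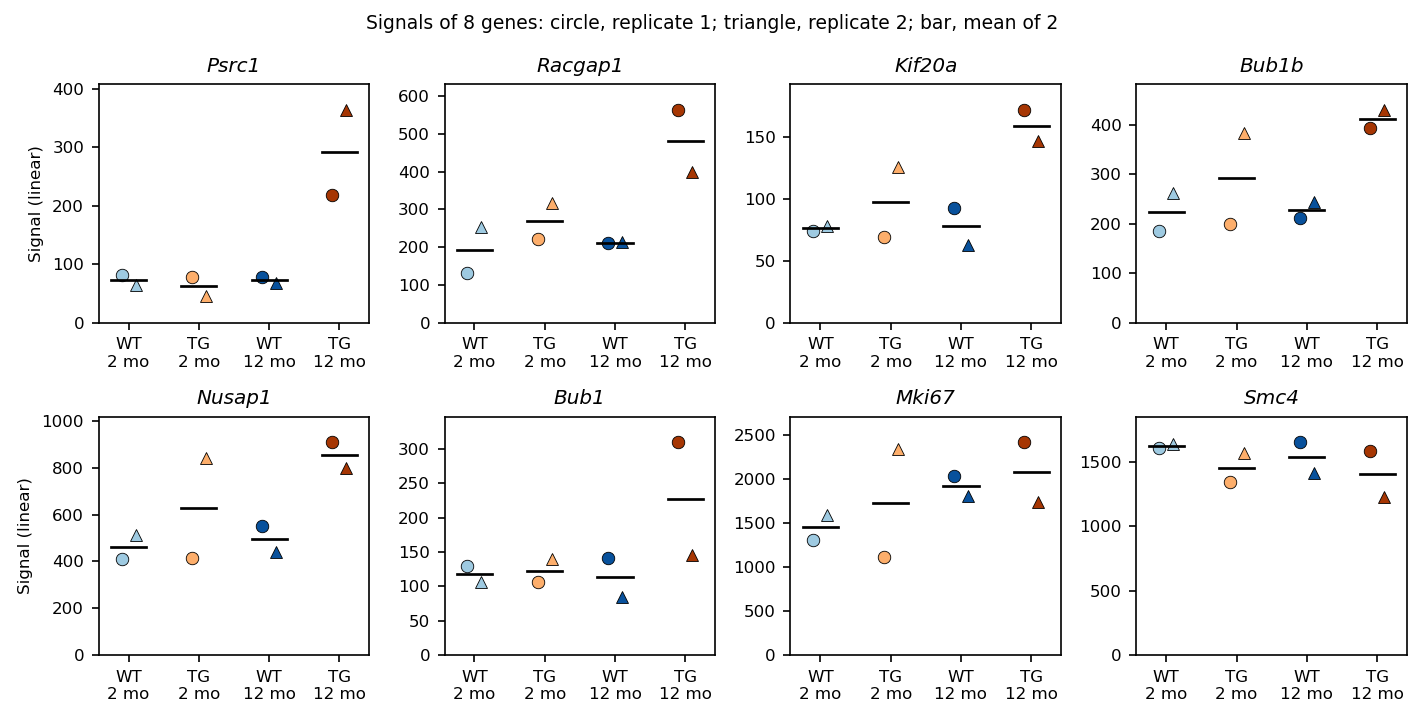
Linear signal of 8 of the genes on each array by group, with a circle for replicate 1, a triangle for replicate 2 and a bar for the mean of both. Psrc1 stands at 219 and 364 in TG mice at 12 months and under 100 elsewhere, while the groups of Mki67 and Smc4 overlap at 12 months.

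Of the chromosome structure genes, 6 of 7 had a higher TG mean at 12 months, the median difference being 0.35, and only Top2a and Ncapd2, named after their values were seen, had groups that did not overlap. Top2a, topoisomerase II alpha, which untangles sister chromatids, had signals of 1080.5 and 1017 in WT and 1870.1 and 1505 in TG mice at 12 months, and 770.3 and 1028 in WT and 769.6 and 1481 in TG mice at 2 months. Its 12-month TG arrays were the highest of the 8, and the difference was 0.67 ± 0.31 (adjusted p = 0.664). Ncaph, a subunit of condensin I, had signals of 346 and 292 in WT and 488 and 343 in TG mice at 12 months, and 314 and 302 in WT and 297 and 353 in TG mice at 2 months. Its 12-month groups overlapped slightly, with a difference of 0.35 ± 0.22 (adjusted p = 0.744). Smc2, a core subunit of the condensins, had signals of 664 and 451 in WT and 951 and 565 in TG mice at 12 months, and 489 and 566 in WT and 467 and 649 in TG mice at 2 months. Its 12-month groups overlapped, and the difference was 0.41 ± 0.30 (adjusted p = 0.809). Mki67, the gene of the proliferation marker Ki-67 that coats mitotic chromosomes, had signals of 2041 and 1807 in WT and 2423 and 1737 in TG mice at 12 months, and 1309 and 1598 in WT and 1117 and 2345 in TG mice at 2 months. Its 12-month groups overlapped as well, and the difference of 0.095 ± 0.34 (adjusted p = 0.981) was well under its SE. Smc4, the other core condensin subunit, had signals of 1651 and 1416 in WT and 1583 and 1229 in TG mice at 12 months, and 1604 and 1639 in WT and 1339 and 1571 in TG mice at 2 months. Its difference was -0.13 ± 0.20 (adjusted p = 0.929), but its other 2 probe sets past the filter differed by 0.60 and 0.28. Within replicates 1 and 2 the first of these was 1.33 and -0.13, and the second 0.37 and 0.18. The direction of the mean for Smc4 thus depends on the probe set, and that of the first also on the replicate. Ncapd2 and Ncapg, of condensin I, differed by 0.33 and 0.35.

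All 7 centromere and kinetochore genes had a higher TG mean at 12 months, the median difference being 0.37, and 6 had groups that did not overlap. Spc24, a subunit of the NDC80 complex that grips microtubules, had signals of 98.0 and 105 in WT and 179 and 203 in TG mice at 12 months, and 102 and 105 in WT and 96.9 and 256 in TG mice at 2 months. The 12-month difference was 0.81 ± 0.37 (adjusted p = 0.652), and the highest of the 8 arrays was TG replicate 2 at 2 months. Cenpe, a kinetochore kinesin that moves chromosomes to the equator, had signals of 165 and 134 in WT and 263 and 182 in TG mice at 12 months, and 112 and 162 in WT and 97.6 and 206 in TG mice at 2 months. It differed by 0.52 ± 0.35 (adjusted p = 0.777) at 12 months without overlap. Nuf2, another subunit of the NDC80 complex, had signals of 179.7 and 178 in WT and 281 and 221 in TG mice at 12 months, and 118 and 153 in WT and 117 and 242 in TG mice at 2 months. Its WT arrays at 12 months were nearly level and below both TG arrays, and the difference was 0.44 ± 0.31 (adjusted p = 0.796). Cenpa, the histone H3 variant that marks centromeres, had signals of 580.3 and 533 in WT and 622 and 639.9 in TG mice at 12 months, and 499 and 579.9 in WT and 433 and 795 in TG mice at 2 months. It differed by 0.18 ± 0.27 (adjusted p = 0.931) at 12 months, and another probe set of it by -0.21. Spc25, Ndc80 and Cenpf differed by 0.37, 0.36 and 0.28.

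The 3 cytokinesis genes had a higher TG mean at 12 months, the median difference being 0.59. Racgap1, a subunit of centralspindlin at the midzone, had signals of 210.2 and 213 in WT and 563 and 399 in TG mice at 12 months, and 131 and 254 in WT and 221 and 318 in TG mice at 2 months. Both 12-month TG arrays were above the other 6, with means of 481 ± 116 in TG and 212 ± 2.31 in WT mice (SD, n = 2), and the difference was 1.10 ± 0.32 (adjusted p = 0.586). Ect2, the exchange factor that activates RhoA for the contractile ring, had signals of 230.3 and 98.3 in WT and 378 and 145 in TG mice at 12 months, and 150.1 and 91.6 in WT and 135 and 154 in TG mice at 2 months. Its replicate 1 arrays at 12 months were above the replicate 2 arrays in both genotypes, so that the groups overlapped, and the difference was 0.59 ± 0.49 (adjusted p = 0.843). Anln, anillin, a scaffold of that ring, had signals of 182 and 151 in WT and 217 and 215 in TG mice at 12 months, and 115 and 171 in WT and 129.6 and 236 in TG mice at 2 months. It differed by 0.35 ± 0.30 (adjusted p = 0.845) at 12 months, with the 2-month TG replicate 2 array the highest of the 8.

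**Figure D3:**
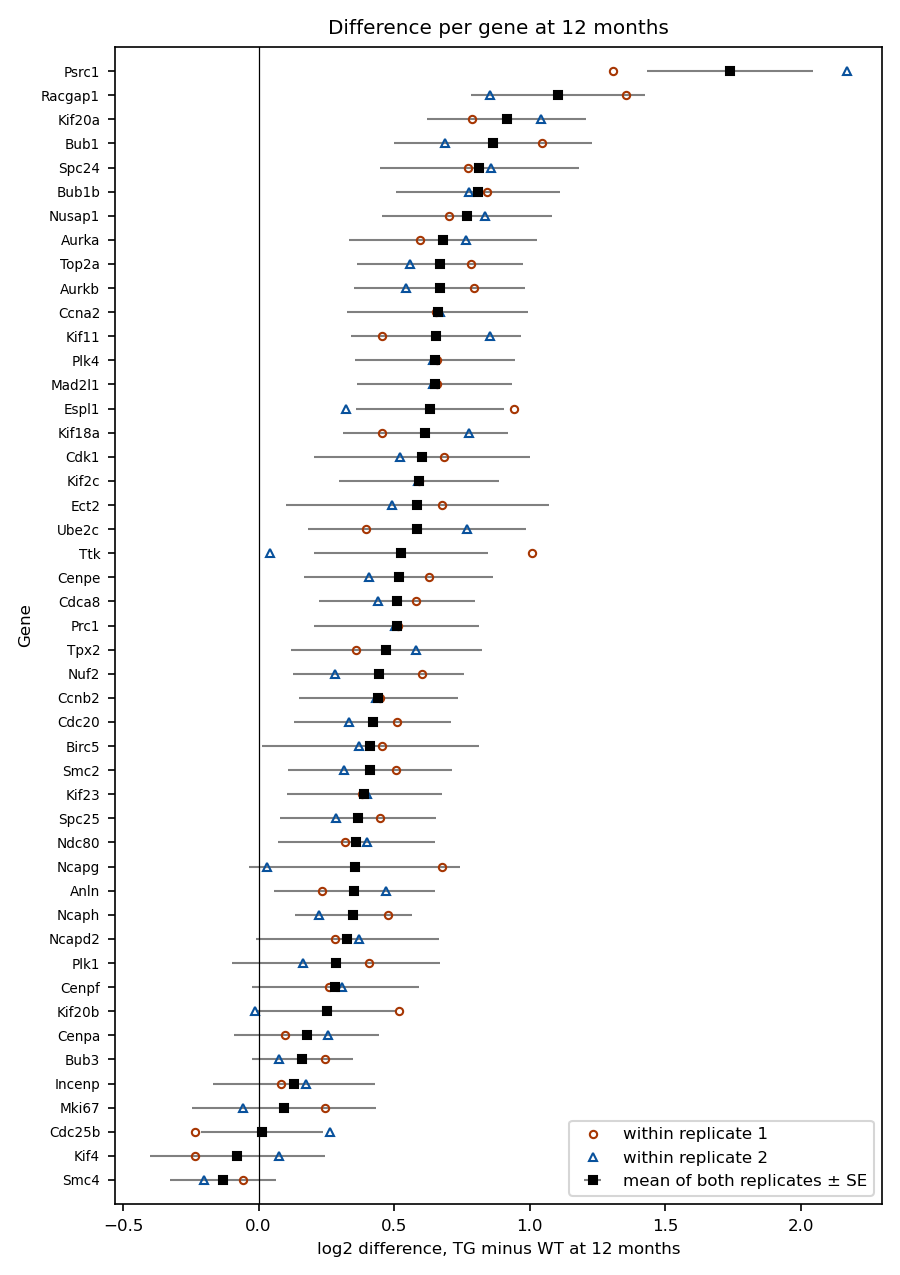
Log2 difference of TG minus WT mice at 12 months for the 47 genes past the filter, with the mean of both replicates as a square with its SE and the difference within each replicate number as open symbols. Psrc1 leads at 1.74, and Kif4 and Smc4 are the 2 genes with a mean below 0.

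Of the 60 other probe sets of these genes, 27, from 20 genes, passed the filter. At 12 months 25 of the 27 were higher in TG mice, and 23 had the sign of the probe set that stood for the gene. The exceptions, named after their values were seen, were 1 probe set each of Top2a, at -0.062, and of Cenpa, at -0.21, and the 2 of Smc4 given above. Of the 23, 13 lay within 1.5 times the gene's own value, and the others, named after their values were seen, ran from 0.21 to 0.77. More than 1.5 times higher than the gene's value were probe sets of Incenp (0.37 and 0.77), Cdc20 (0.73) and Ncaph (0.60). More than 1.5 times lower were probe sets of Tpx2 (0.21 and 0.27), Cdca8 (0.28), Prc1 (0.31), Ccna2 (0.41) and Bub1b (0.53). Genes with TTTGAA before the start had a median 12-month difference of 0.51 over 15 genes, and those without it of 0.44 over 25. With and without CCAAT the medians were 0.51 over 29 genes and 0.44 over 11. For TTTAAA, a variant of the CHR letters searched in the same way, the order was the opposite. Its medians were 0.35 over 6 genes with it and 0.51 over 34 without it.

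Leaving out 1 of the 4 arrays at 12 months moved the log2 difference by over 1.5 times, or turned its sign, for 27 of the 47 genes. Such a move was seen for 21 genes without TG replicate 1, 20 without WT replicate 2, 17 without TG replicate 2 and 12 without WT replicate 1. In the same order 41, 44, 46 and 46 of the 47 were still higher in TG mice. The 20 genes that stayed within 1.5 times included Psrc1, Racgap1, Kif20a, Bub1b and Nusap1, which had the smallest p-values. Of genes described above, the difference ran from 0.36 to 1.37 for Bub1, from 0.27 to 1.04 for Kif11 and from 0.25 to 0.98 for Kif18a. It ran from 0.32 to 0.98 for Mad2l1, from 0.36 to 0.95 for Plk4 and from 0.44 to 0.90 for Aurkb. For Espl1 it ran from 0.40 to 0.87 and for Cdc20 from 0.15 to 0.69. Among chromosome and kinetochore genes it ran from 0.11 to 0.59 for Ncaph, from 0.044 to 0.78 for Smc2, from 0.27 to 0.76 for Cenpe and from 0.28 to 0.61 for Nuf2. The small differences of Bub3, Incenp, Cenpa and Anln moved by over 1.5 times as well, without a change of sign.

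Genes of the same pathways outside the 50 were read from lists of 142 genes, of which 134 were tested. At 12 months 99 of the 134 were higher in TG mice, against 45.2% of all genes tested, with a median of 0.19. None passed limma's test, where 0% of all genes did. An unadjusted p under 0.05 was found for 8 higher genes, against 2.59% of all genes, and for 1 lower gene, Numa1, against 5.14%. With the replicate block these counts were 18 and 2, against 7.26% and 12.6%. Both TG arrays lay above both WT arrays for 45 of the 134, against 14.3% of all genes, and below for 8, against 19.9%. Haspin, the kinase that recruits the passenger complex to centromeres, had signals of 49.99 and 29.4 in WT and 107 and 82.6 in TG mice at 12 months, a difference of 1.01 ± 0.27 (adjusted p = 0.586). Cenpi, of the inner kinetochore, differed by 0.82 ± 0.25 (adjusted p = 0.586). These are among the 35 other centromere and kinetochore genes, of which 26 were higher, with a median of 0.24. Of 24 other kinesin and spindle genes 19 were higher, with a median of 0.28. Both TG arrays lay above both WT arrays for 14 of the 24 and below for 3, against 14.3% and 19.9% of all genes. Among them the smallest p-values were for Numa1, the spindle pole protein, with signals of 1167 and 1179.9 in WT and 806 and 881 in TG mice and a difference of -0.47 ± 0.16 (adjusted p = 0.591), and for Haus8, a subunit of augmin, at -0.51 ± 0.23. These 2 genes were lower in TG mice, against the direction of most of their list.

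Among other CDK1 and anaphase-promoting complex regulators, 24 of 29 were higher at 12 months, and Cks1b, a CDK-binding subunit, and Fbxo5, an inhibitor of the complex, differed by 0.58 ± 0.20 and 0.66 ± 0.30. Of the condensin II and cohesin genes 10 of 17 were higher, with Cdca5, sororin, at 0.62 ± 0.26 and Wapl, the cohesin release factor, at 0.30 ± 0.20. Of other cytokinesis genes 13 of 16 were higher, with Arhgap11a at 0.71 ± 0.23 and Cep55, a midbody protein, at 0.89 ± 0.35. Of the G2/M transcription factor genes 7 of 13 were higher, with a median of 0.11. Mybl2, the gene of B-MYB, had signals of 117 and 119 in WT and 207 and 191 in TG mice at 12 months and differed by 0.68 ± 0.30 (adjusted p = 0.645), and Rbl1, the gene of the pocket protein p107, by 0.42 ± 0.19. DNA replication genes, which act in the phase before, were higher in TG mice in 35 of 39 cases, with a median of 0.35.

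At 12 months T cell markers were higher in TG mice in 8 of 10 cases, with a median of 0.69, and their summed signal was 3429 and 4265 in WT and 8820 and 4637 in TG mice. B cell markers were lower in 10 of 11 cases, with a median of -0.45 and sums of 21770 and 28648 in WT and 14820 and 25940 in TG mice. With the replicate block Cr2 and Fcer2a, receptors of mature B cells named after their values were seen, passed limma's test at -1.56 and -1.48 (adjusted p = 0.0255 each), among 5 genes of all tested that did. Germinal centre B cell markers, of a rapidly dividing B cell stage, summed over 6 genes to 704 and 470 in WT and 1224 and 428 in TG mice, so that only replicate 1 was higher. Dendritic cell markers were lower in 8 of 8 cases, 7 of them within both replicates, with a median of -0.51 and sums of 4743 and 5274 in WT and 3359 and 3393 in TG mice. Macrophage markers were lower in 6 of 9 cases, with a median of -0.52 and sums of 24053 and 24654 in WT and 16259 and 21586 in TG mice. NK cell markers were higher in 5 of 7 cases, with a median of 0.38 and sums of 1493 and 1556 in WT and 3852 and 1707 in TG mice. Megakaryocyte markers were lower in 5 of 5 cases, with a median of -0.34, but of -0.72 within replicate 1 and 0.084 within replicate 2. Their summed signal was 4970 and 4633 in WT and 3054 and 5531 in TG mice. Plasma cell markers were lower in 6 of 8 cases, with a median of -0.081, and of 0.074 and -0.30 within replicates 1 and 2. Their sums were 17398 and 24311 in WT and 19556 and 25308 in TG mice, higher in TG mice within both replicates. The part of these lists in the result was not tested, and no marker was listed at 0. Erythroid precursor markers summed over 12 genes to 20057 and 18826 in WT and 17109 and 23243 in TG mice. Within replicate 1, 1 of 11 erythroid markers was higher in TG mice, with a median of -0.20, where the mitosis and spindle genes had a median of 0.52. Within replicate 2, 11 of the 11 were higher, with a median of 0.34, where the genes had a median of 0.43. Granulocyte markers summed over 11 genes to 10458 and 5953 in WT and 9630 and 21711 in TG mice, and their median was -0.072 within replicate 1 and 1.76 within replicate 2. The part of the erythroid and granulocyte lists was not tested either. The 3' to 5' signal ratio of the Gapdh control, a sign of RNA quality, was 1.25 and 1.73 in WT and 0.843 and 1.21 in TG mice, and that of beta-actin was 1.48 and 1.31 in WT and 1.20 and 1.10 in TG mice. Both were lower in TG mice within both replicates, and their part was not tested.

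The comparison at 2 months asks whether the genes already differ before tumours form. There 43 of the 47 genes had a higher mean in TG mice, against 52.5% of all genes tested, with a median log2 difference of 0.22 against 0.0089 for all genes. The replicates did not show this alike, since the median was -0.021 within replicate 1, where 19 genes were higher, and 0.43 within replicate 2, where 44 were. Within both replicates 19 of the 47 genes were higher, against 27.2% of all genes. Both TG arrays lay above both WT arrays for 1 of the 47, Mad2l1, or 3 of the 49 with Kif15 and Cdc25c, where 10.1% of all genes tested did, and below for Smc4, where 7.83% did. Mad2l1 was named after its values were seen. None of the 47 passed limma's test, where 0% of all genes did, none had an unadjusted p under 0.05, against 0.295% of all genes that were higher and 0.0983% that were lower, and the smallest adjusted p was 1.00. With the replicate block none had an unadjusted p under 0.05 either, against 0.992% higher and 0.697% lower of all genes. Without the WT replicate 1 array, which carried the pancreas signal, 32 of the 47 genes were higher and the median was 0.074, and without TG replicate 2 it was -0.13.

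The smallest p-values at 2 months among higher genes were for Racgap1, with a difference of 0.49 ± 0.32, Spc24, with 0.55 ± 0.37, and Cdc25b, with 0.33 ± 0.22, each with an adjusted p of 1.00. Within replicates 1 and 2 Racgap1 differed by 0.68 and 0.31, Cdc25b by 0.18 and 0.47 and Spc24 by -0.067 and 1.16. For Spc24 the difference was near 0 within replicate 1, and TG replicate 2 alone was high. Without the WT replicate 1 array the difference of Racgap1 was 0.059, that of Spc24 0.53 and that of Cdc25b 0.22, so that Racgap1 was nearly level. Without TG replicate 2 they were 0.25, -0.086 and 0.075. Among lower genes the smallest p-values were for Bub3, at -0.18 ± 0.19, Smc4, at -0.16 ± 0.20, and Psrc1, at -0.20 ± 0.31. Without the WT replicate 1 array these were -0.20, -0.17 and -0.066, and without TG replicate 2 Psrc1 was higher, by 0.10. Without TG replicate 1 the differences of Bub3 and Smc4 were near 0, at -0.011 and -0.045. The second probe set of Psrc1 was higher in TG mice at 2 months, by 0.22, and that of Bub3 past the filter by 0.090, while the other 2 of Smc4 were lower, at -0.092 and -0.032. Erythroid precursor markers moved with the genes, with medians of -0.22 within replicate 1 and 0.46 within replicate 2 and sums of 12203 and 21182 in WT and 10717 and 30773 in TG mice. Granulocyte markers were higher in 10 of 11 cases, with sums of 6575 and 21194 in WT and 7895 and 25772 in TG mice. Their part in the 2-month values was not tested.

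**Figure D4:**
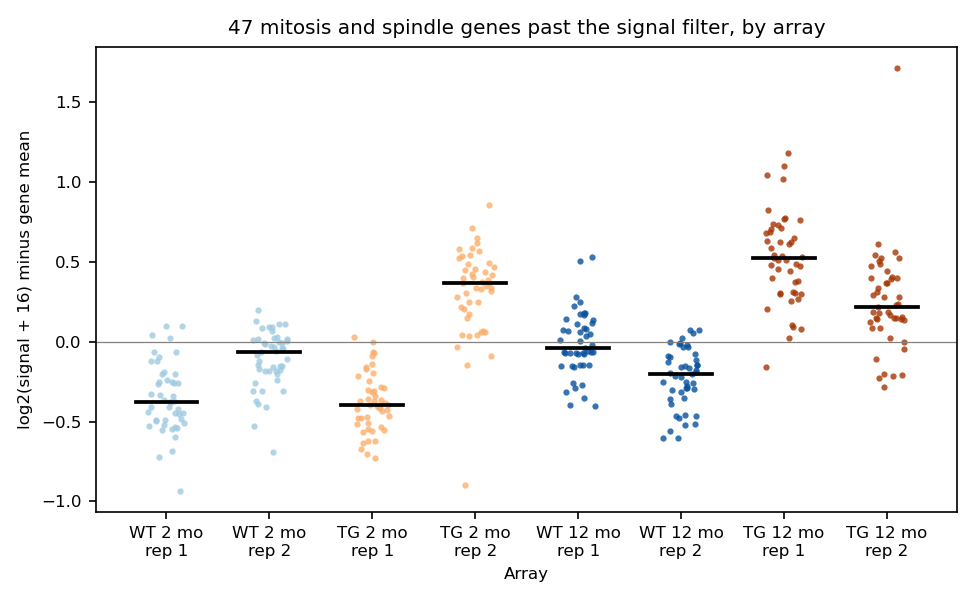
Each point is 1 of the 47 genes past the filter on 1 array, as log2(signal + 16) minus the gene's mean over the 8 arrays, and bars are medians. The medians of TG mice at 12 months were 0.53 and 0.21, that of TG replicate 2 at 2 months was 0.37, and the other 5 arrays lay between -0.40 and -0.039.

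Over all 8 arrays, the 12-month TG replicate 1 array was the highest for 27 of the 47 genes and the 2-month TG replicate 2 array for 15. The 12-month TG replicate 2 array was the highest for 3 genes and the 12-month WT replicate 1 array for 2. The lowest arrays were mostly those of replicate 1 at 2 months, TG for 17 genes and WT for 14. For Psrc1 the 2-month TG replicate 2 array was the lowest.

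The TG effect at 12 months was then set against that at 2 months, which share no array. It was larger at 12 months for 42 of the 47 genes, where 43.7% of all genes tested had a larger one, with a median difference of the effects of 0.31. Within replicate 1 this median was 0.60 and within replicate 2 it was 0.0099. None of the 47 passed limma's test of the difference, where 0% of all genes did, and 1, Psrc1, had an unadjusted p under 0.05, against 0.518% of all genes tested that were higher and 1.39% that were lower. The count with the replicate block was also 1, against 2.6% higher and 5.54% lower. For Psrc1 the difference of the effects was 1.94 ± 0.43 (unadjusted p = 0.00204, adjusted p = 1.00), and 1.34 and 2.54 within replicates 1 and 2. Kif20a and Bub1 followed, with 0.66 ± 0.41 and 0.82 ± 0.52. The effect was smaller at 12 months for Cdc25b, with -0.31 ± 0.32, Kif4, with -0.41 ± 0.46, and Mki67, with -0.067 ± 0.48. With each array left out in turn these ran from 0.29 to 1.04 for Kif20a, from 0.31 to 1.33 for Bub1 and from -0.56 to -0.062 for Cdc25b, and turned sign for Kif4, from -0.82 to 0.0030, and Mki67, from -0.60 to 0.46. At both ages and within both replicates 17 of the 47 genes were higher in TG mice. The share of all genes for that count was not computed. Without the 2-month WT replicate 1 array 45 of the 47 had a larger effect at 12 months and the median difference of the effects was 0.43, and without the 2-month TG replicate 1 array it was -0.087. The T cell marker list had medians of 0.93 and 0.16 within replicates 1 and 2 in this comparison and the NK cell list of 0.94 and -0.047, and their part was not tested.

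Age was compared within each genotype. These comparisons share their arrays with those of TG and WT mice, so their values are given side by side only. In TG mice 44 of the 47 genes were higher at 12 than at 2 months, against 43.7% of all genes tested, with a median of 0.42. The median was 0.95 within replicate 1 and -0.12 within replicate 2. Both 12-month arrays lay above both 2-month arrays for 14 of the 47, where 10.3% of all genes tested did, and for no gene below, where 17.4% did. None passed limma's test, where 0.00894% of all genes did. An unadjusted p under 0.05 was found for 2 genes, Psrc1 and Racgap1, against 1.61% of all genes tested that were higher and 3.11% that were lower, and for 10 with the replicate block, all higher, against 4.51% higher and 8.87% lower. Psrc1 was higher at 12 months by 1.96 ± 0.31 (adjusted p = 0.419), with 1.31 and 2.61 within replicates 1 and 2 and an adjusted p of 0.0601 with the block. Racgap1 and Kif20a differed by 0.80 ± 0.32 and 0.67 ± 0.29. Cdc25b, Smc4 and Kif4 were lower at 12 months, with differences of -0.19 ± 0.22, -0.055 ± 0.20 and -0.039 ± 0.32. Without the 2-month TG replicate 1 array Racgap1 and Kif20a differed by 0.55 and 0.30, and without the 2-month TG replicate 2 array Cdc25b, Smc4 and Kif4 were higher at 12 months, by 0.057, 0.059 and 0.18. Without the 2-month TG replicate 1 array the median was 0.011.

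In WT mice 39 of the 47 genes had a higher mean at 12 months, against 51.4% of all genes tested, with a median of 0.084, and medians of 0.38 within replicate 1 and -0.094 within replicate 2. Both 12-month arrays lay above both 2-month arrays for 4 genes, where 12.7% of all genes tested did, and below for 1, where 10.9% did. The 4 were Cenpf, Nuf2, Mki67 and Spc25 and the 1 was Ttk, of which Spc25 was named after its values were seen. None of the 47 passed limma's test, where 0% of all genes did, and none had an unadjusted p under 0.05, against 0.947% higher and 0.581% lower of all genes. With the block none did either, against 2.77% higher and 2.4% lower. The smallest p-values among higher genes were for Cenpf, at 0.40 ± 0.31, Nuf2, at 0.38 ± 0.31, and Mki67, at 0.40 ± 0.34. Among lower genes they were for Bub3, at -0.094 ± 0.19, Ttk, at -0.15 ± 0.32, and Smc4, at -0.084 ± 0.20. Psrc1 differed by 0.016 ± 0.31 with age in WT mice. Without the 2-month WT replicate 1 array Cenpf, Nuf2 and Mki67 differed by 0.23, 0.20 and 0.26, Bub3, Ttk and Smc4 by -0.11, -0.28 and -0.099, and Psrc1 by 0.15. Without a 12-month WT array Bub3 and Smc4 turned sign, to 0.018 and 0.025. Without the 2-month WT replicate 1 array 19 of the 47 genes had a higher mean at 12 months and the median was -0.046. Erythroid precursor markers had medians of 0.59 and -0.18 within replicates 1 and 2 in WT and of 0.55 and -0.30 in TG mice, and granulocyte markers of 0.82 and -1.39 in WT and of 0.48 and -0.31 in TG mice. Both lists moved with the mitosis and spindle genes in both age comparisons. Plasma cell markers were higher at 12 months in 8 of 8 cases in WT and 7 in TG mice, with medians of 0.49 and 0.54. The part of these lists was not tested.

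**Figure D5:**
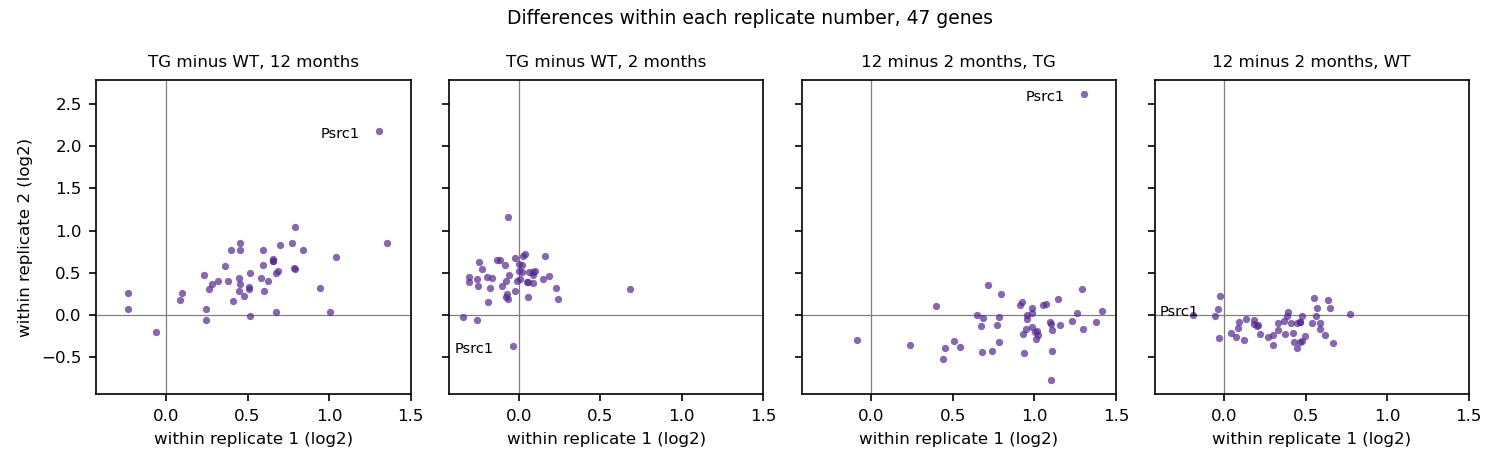
Log2 difference within replicate 1 on the x axis and within replicate 2 on the y axis for the 47 genes past the filter, in 1 panel per comparison. At 12 months 42 genes of the TG minus WT panel lie above 0 on both axes, while in the 2-month panel and both age panels the replicates differ.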

How the data were processed

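The authors deposited probe set intensities on a linear scale for 8 arrays, made with GCOS 1.4 and MAS5 per the submitters' processing notes. In these values the trimmed mean of every array was 150.001, and no normalization beyond that single scaling was visible. Whether background was subtracted cannot be read from the trimmed means. Signals were taken as log2(signal + 16). Probe sets under the median mean signal of 45.3 were left out, as were those with several gene symbols (932) or none (9160), which left 11189 genes with the brightest probe set each. A fit of 4 group means with an intensity trend was made with limma 3.58.1 in R 4.3.3, with 4 residual degrees of freedom and 2-sided p-values adjusted by Benjamini-Hochberg over all genes. The fit was tested on simulated data with known changes.

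Replicate numbers come from the labels. For all 6 pairs of groups the replicate differences were correlated over genes, with r from 0.464 to 0.654, so the numbers pair the arrays, and the number was used as a block in an alternative fit. Other alternatives were the pseudocount, the filter, averaging a gene's probe sets, quantile and cyclic loess normalization, the variance model and each array left out. Genes and lists were chosen with earlier results of these data known. In each role group the 3 genes with the smallest p at 12 months and the 1 with the largest are described in full, in other comparisons 3 per direction by smallest p, and in other pathway lists 2. All genes under the filter or without a probe set are named too.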

Additional observations from a re-analysis of the deposited data

Results flagged for a closer look

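Psrc1 and Bub3 differed between TG and WT mice in opposite directions at the 2 ages, within both replicates. At 2 months, however, 1 replicate of each gene was nearly level. Psrc1 had signals of 81.1 in WT and 78.9 in TG mice in replicate 1, and Bub3 of 1611 and 1584 in replicate 2. For Psrc1 the log2 difference was 1.74 at 12 months and -0.20 at 2 months. The test of the difference of these effects gave an unadjusted p of 0.00204 and an adjusted p of 1.00 with limma. The second probe set of Psrc1 past the filter was higher in TG mice at both ages, by 1.24 and 0.22, so the opposite sign at 2 months was not seen there. Without the 2-month TG replicate 2 array the first probe set was higher as well, by 0.10. For Bub3 the log2 difference was 0.16 at 12 months and -0.18 at 2 months, and the same test gave an unadjusted p of 0.229 and an adjusted p of 1.00. The other probe set of Bub3 past the filter was higher in TG mice at both ages, by 0.18 and 0.090, so the opposite sign was not seen there either.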

How the results depend on the processing

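None of the 47 genes passed the test in any of the 5 comparisons under any other pseudocount, filter, probe set rule, normalization or variance model tried, or with the replicate block over all 8 arrays, where the count was 0. The count stayed at 0 from lowest to highest when each array was left out without the block. The replicate block with 1 array left out was an alternative chosen after seeing the data. Where a 12-month TG array was left out, some genes passed, Psrc1 among them, at 12 months and between ages in TG mice. Every fit with an array left out, with or without the block, leaves 1 array in that array's group. The calls of both kinds of fit, present or absent, are therefore not read as results. The cause was not tested. The 12-month median was 0.41 with log2(signal + 64) and 0.44 with a gene's probe sets averaged. Leaving out each array in turn gave medians from 0.36 to 0.61 at 12 months, from -0.13 to 0.61 at 2 months, from -0.087 to 0.66 for the difference of the effects, and from 0.011 to 0.82 in TG and from -0.046 to 0.25 in WT mice with age. Genes without overlap numbered 35 to 46 (0 to 3 below) at 12 months and 3 to 45 (1 to 22 below) at 2 months, and with age 15 to 43 (0 to 16 below) in TG and 4 to 29 (1 to 19 below) in WT mice. A group of 1 array separates more easily from another, so these counts are not like those of 2 arrays. The shares of all genes with an array left out were not computed, so these counts are not read as results. The 2-month count was 1 above and 0 below with probe sets averaged and 0 below with quantile normalization. The count below with age in WT mice was 2 with quantile and 2 with cyclic loess normalization. At 12 months the sign turned for Cenpa (-0.017) and Smc4 (0.25) with probe sets averaged. It also turned without the TG replicate 1 array for Ect2 (-0.060 to 1.23), Kif20b (-0.089 to 0.59), Mki67 (-0.14 to 0.33) and Ncapg (-0.14 to 0.85), where the parentheses hold the range with each array left out. Without TG replicate 2 it turned for Cdc25b (-0.14 to 0.16), Kif4 (-0.49 to 0.33) and Smc4 (-0.31 to 0.050), and without a 12-month WT array also for Kif4 and Cdc25b. For the leading genes of the other comparisons, each array left out in turn, chosen after seeing the data, turned the sign at 2 months of Spc24 (-0.086 to 1.18) and Psrc1 (-0.51 to 0.10), and of the difference of the effects for Kif4 (-0.82 to 0.0030) and Mki67 (-0.60 to 0.46). With age it turned for Cdc25b (-0.45 to 0.057), Smc4 (-0.24 to 0.13) and Kif4 (-0.29 to 0.22) in TG mice and for Bub3 (-0.21 to 0.018), Smc4 (-0.19 to 0.025) and Psrc1 (-0.12 to 0.15) in WT mice. The signal of a probe set over its background was not analysed here, and 2 arrays a group limit every value.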
